A study of Mus musculus with 2 samples.

Results

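Of 5 miRNAs best known from inflammatory signalling, the array detected mmu-miR-21 and mmu-miR-146b in RNA of adipocyte-derived microvesicles at both collection times. By the detection rule given below, mmu-miR-155 was detected only at the earlier one, close to the limit, and mmu-miR-146a and mmu-miR-132 at neither. The shorter mmu-miR-146b probe also read close to the limit at both times. The scanner software's own call listed mmu-miR-155 as detected at both. The prefix mmu, for mouse, is left off from here on. These 5 entries were taken by name from the 567 mouse miRNAs of the array, with all of their 10 probes and 100 spots on each array. miRNAs are small RNAs that pair with messenger RNAs and lower their output. Vesicles were pelleted by ultracentrifugation from medium that 3T3-L1 cells, a mouse preadipocyte line that turns into adipocytes, had conditioned for 48 h. Both groups came from cells in high-glucose medium with 10% fetal calf serum, and the adipocyte induction mix held 0.5 mM of the phosphodiesterase inhibitor 3-isobutyl-1-methylxanthine, 0.25 µM of dexamethasone and 10 µg/ml of insulin. One medium covered day 2 to day 4 and the other day 8 to day 10, each on 1 array, so the arrays compare an early and a late vesicle preparation of 1 cell line and no difference has a replicate check or a p-value. The labels name no genotype, transgene or uninduced control, and dexamethasone, itself an anti-inflammatory steroid, was part of the induction of both groups. RNA carried over from serum and RNA of the cells cannot be told apart here.

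miR-21 is made in most cell types, is raised in inflamed and fibrotic tissue and represses Pdcd4. miR-146a and miR-146b are induced by NF-kappaB, the transcription factor activated by Toll-like receptors, and repress Irak1 and Traf6 of the same pathway, which forms a negative feedback. miR-155 is induced in activated macrophages and lymphocytes, represses the cytokine-signalling inhibitor Socs1 and also targets Cebpb, a regulator of adipocyte differentiation. miR-132 is induced through CREB, best known in neurons, and is processed from the same transcript as miR-212.

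The mature sequences are shown because the probes read their 3′ ends and because 2 members differ in only 2 bases. They are from RefSeq for GRCm38.p6, in which all 5 members were matched. The arm was found from the distances between array entries of a chromosome, which equalled the distances between RefSeq 3′ ends. Capitals mark the seed, bases 2 to 8, which selects targets.
miR-21 (miR-21a-5p): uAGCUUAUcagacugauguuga
miR-146a (miR-146a-5p): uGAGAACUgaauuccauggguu
miR-146b (miR-146b-5p): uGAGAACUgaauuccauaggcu
miR-155 (miR-155-5p): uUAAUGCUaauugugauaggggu
miR-132 (miR-132-3p): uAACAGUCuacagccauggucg
miR-212 (miR-212-3p): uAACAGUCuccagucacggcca
miR-146a and miR-146b have the same seed and differ at G18A and U21C, counted from the 5′ end with the base of miR-146a first. miR-132 shares its seed with miR-212 and differs from it in 5 of 22 bases. miR-21 shares its seed with 1 other RefSeq mouse miRNA, miR-21c, and miR-155 with none. The mature miRNAs lie at chr11:86584120-86584141 (miR-21, minus strand), chr11:43374435-43374456 (miR-146a, minus strand), chr19:46342790-46342811 (miR-146b, plus strand), chr16:84714143-84714165 (miR-155, plus strand) and chr11:75173723-75173744 (miR-132, plus strand) of GRCm38.p6. In the RefSeq gene table of that assembly the gene of miR-21 lies inside Vmp1, that of miR-155 inside the noncoding Mir155hg, also called Bic, and that of miR-146b inside the predicted gene Gm36493. No containing gene was listed for miR-146a or miR-132, and Mir212 lies within 1000 bases of Mir132.

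Values are processed intensities in the scanner's arbitrary units, the spot brightness after subtraction of a fitted background surface, and spots without target scatter around 0. Negative-control spots averaged -0.29 ± 0.98 (SD over 660 spots) at day 2-4 and -0.33 ± 1.02 (SD over 656 spots) at day 8-10, and none was well above background. A probe was called detected where more than 0.5 of its spots were well above background, and the dimmest detected probe of any mouse miRNA read 4.86 at day 2-4 and 5.55 at day 8-10. By this rule 27.5% of the mouse miRNAs were detected at day 2-4 and 29.3% at day 8-10, against 3 and 2 of the 5 members. No member spot was saturated, and 2 outlier spots at day 2-4 and 3 at day 8-10 were left out. Of the marker lists, 6 of 6 adipocyte-linked and 4 of 5 fibroblast-linked miRNAs were detected on each array, while none of 3 muscle, 1 liver and 2 neural miRNAs was. Of 3 erythroid miRNAs that serum also carries, 2 were detected at day 2-4 and 3 at day 8-10, miR-451 with a mean intensity of 733 and 664.

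**Figure D1:**
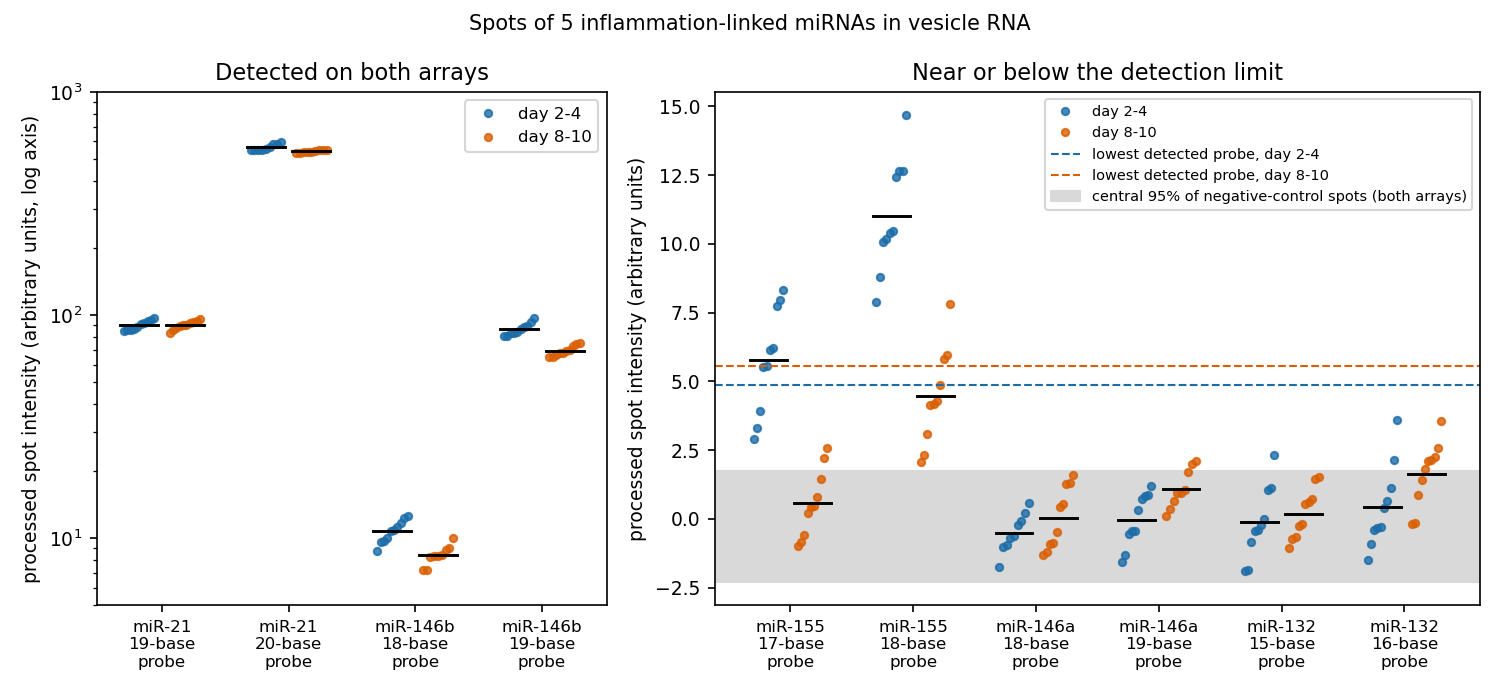
Processed intensity of every spot used, by probe and window; each point is a spot and each bar the mean of the probe on 1 array, with a log axis at left and a linear axis at right. miR-21 and the longer probe of miR-146b lie well above the detection limit on both arrays. The shorter miR-146b probe lies closer to it, with means of 10.8 at day 2-4 and 8.40 at day 8-10. The miR-155 probes average 11.0 and 5.76 at day 2-4 and fall below the limit at day 8-10, with means of 4.46 and 0.57. miR-146a and miR-132 stay near the grey band, the central 95% of negative-control spots.

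miR-21 gave nearly the same intensity in early and late vesicles. Its 20-base probe read 547 (lowest), 553 (median) and 596 (highest) over 9 spots at day 2-4 and 533, 541 and 552 over 9 spots at day 8-10. Its 19-base probe read 84.6, 89.8 and 97.5 over 10 spots at day 2-4 and 83.4, 90.6 and 96.4 over 10 spots at day 8-10. The spots of the early and late arrays overlapped for both probes before scaling. From the early to the late array the mean intensity changed by -4.06% on the 20-base probe and by 0.27% on the 19-base probe.

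To compare the arrays, each was divided by the 75th percentile of the probes detected on both, which was 108 at day 2-4 and 95.2 at day 8-10. This multiplies every late value by 1.14 relative to the early one, more than the change of miR-21 itself. After it the log2 difference, day 8-10 minus day 2-4, was 0.16 for miR-21, with 0.13 for the 20-base and 0.19 for the 19-base probe. The spot SE was 0.017, which covers technical spread between spots only. Scaled spots of the 20-base probe did not overlap (5.05 to 5.51 early, 5.60 to 5.80 late), while those of the 19-base probe did. The share of all probes that separate after scaling is not given here. Across the 145 miRNAs detected on both arrays the median log2 difference was 0.20, so miR-21 lay 0.05 below the middle of the array (-0.05), and only 27 of the 145 had a smaller absolute difference. Its sign was negative under 3 of 10 alternative settings, at -0.35 with the 75th percentile over all probes, -0.03 without scaling and -0.11 with the gene signal summed by the scanner software. Relative to the median of all miRNAs in the same setting, which a mere rescaling of an array cannot change, it was -0.05 in the main setting and between -0.15 and 0.20 in the 8 alternatives that do more than rescale.

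miR-146b was slightly dimmer in the late vesicles on both of its probes. The 19-base probe read 80.3 (lowest), 85.2 (median) and 96.9 (highest) over 10 spots at day 2-4 and 64.6, 68.4 and 75.2 over 10 spots at day 8-10, with no overlap of spots before scaling. The 18-base probe read 8.73, 10.8 and 12.5 over 10 spots at day 2-4 and 7.19, 8.35 and 9.98 over 9 spots at day 8-10, with overlap. Mean intensity changed by -19.9% and -21.9%, and after scaling the spots of both probes overlapped. The share of all probes that separate before scaling is not given here, so that of the 19-base probe is no result about miR-146b. The log2 difference after scaling was -0.15 for the miRNA (spot SE 0.041), -0.13 for the 19-base probe and -0.17 for the 18-base probe. Under the 10 alternatives it ran from -0.66 to 0.0017, the latter with normexp background correction, which draws dim signals together. Relative to the median of all miRNAs, miR-146b stood at -0.36, and in the 8 alternatives that do more than rescale an array at values from -0.42 to -0.12.

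Neither miR-21 nor miR-146b reached 2-fold, the size used here to count a miRNA as higher or lower when it also passed 2 spot SEs. Over all miRNAs detected on both arrays, 23.4% (34 of 145) passed that rule, 15.9% higher and 7.59% lower at day 8-10, so 0 of 2 members is no result about them. The miRNAs with the log2 differences nearest to that of miR-21 were miR-320 (0.16) and miR-324-3p (0.17), and those nearest to miR-146b were miR-100 (-0.16) and miR-25 (-0.14), over 2 windows and 143 candidates.

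**Figure D2:**
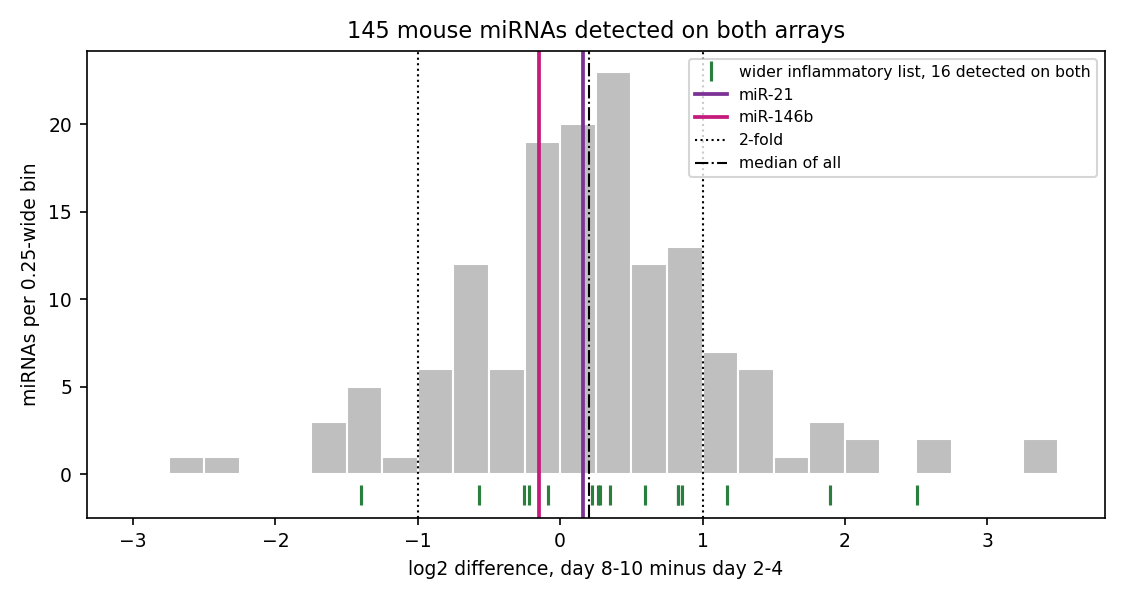
Histogram of the log2 difference, day 8-10 minus day 2-4, over the 145 mouse miRNAs detected on both arrays, with miR-21 (0.16) and miR-146b (-0.15) as lines and 16 miRNAs of a wider inflammatory list as ticks. miR-21 lies near the median of 0.20 and miR-146b below it, and both lie inside the dotted 2-fold lines.

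miR-155 was the member with the plainest loss of signal, from a level already close to the detection limit. Its 18-base probe read 7.90 (lowest), 10.4 (median) and 14.7 (highest) over 10 spots at day 2-4 and 2.07, 4.23 and 7.82 over 10 spots at day 8-10. Its 17-base probe read 2.92, 5.86 and 8.33 at day 2-4 and -0.998, 0.45 and 2.57 at day 8-10. Before scaling the early and late spots of neither probe overlapped, though by small margins, and after scaling both overlapped. The share of all probes that separate before scaling is not given here, so the separation is no result about miR-155.

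In all, 17 of 20 miR-155 spots were well above background at day 2-4 and 3 of 20 at day 8-10. At day 8-10, 12 of the 20 spots lay above the central 95% of negative-control spots, so the late signal was not well above background without being level with the controls. Because the late array gives only an upper limit by this rule, the fold depends on the value put in its place. With spots below the dimmest detected probe set to it on both arrays, the early miR-155 signal was 1.26-fold higher in the main setting. This is not a strict lower bound, since early 17-base spots below that level were raised too. The measured means over both probes were 8.39 and 2.52. By the 18-base probe alone the early signal was at least 1.64-fold higher, and the 17-base probe gave no bound above 1. The log2 difference of the 17-base probe was 0.055 (-4.15 early, -4.10 late), opposite in sign to that of the 18-base probe (-0.71). Its measured mean nevertheless fell from 5.76 to 0.57, since all its late spots had been set to the dimmest detected probe.

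The software's own gene signal, which sums spots and probes and applies its own detection call, listed miR-155 as detected on both arrays. It fell from 11.1 to 3.35 there, 3.31-fold, and after scaling the log2 difference was -1.79 (SE from the software's error estimate 0.49). In that setting 25.3% of the 170 miRNAs detected on both arrays passed the 2-fold rule in either direction, and 12.4% of the 170 passed it in the lower direction. With normexp background correction the log2 difference of miR-155 was 0.035, of the opposite sign. The log2 difference of miR-155 was negative in 9 of 10 alternatives, but these are not separate checks. Among them 2 only rescale the arrays, and keeping outlier spots or averaging all probes returned the main value of -0.33. The probes of miR-155 also passed the detection rule only at day 2-4, where they were brighter, so the count of signs is no support for a fall. The size of the difference depended on how signals near background were treated.

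**Figure D3:**
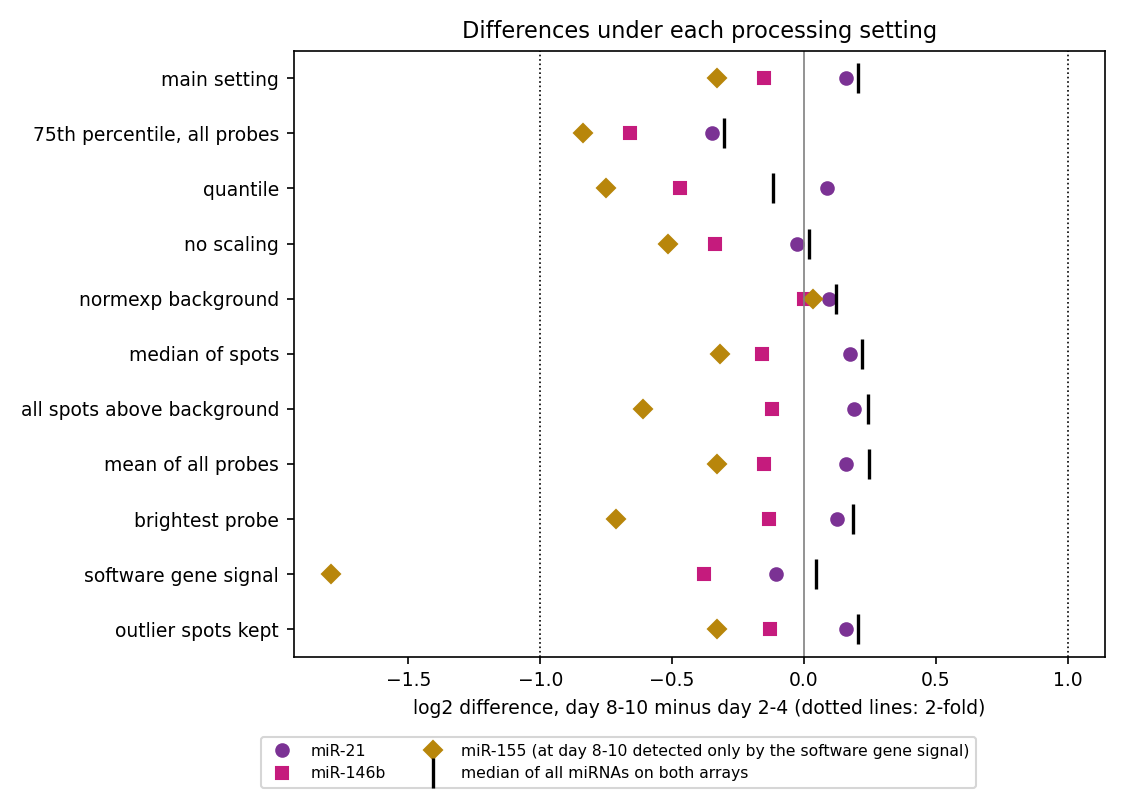
Log2 difference, day 8-10 minus day 2-4, of miR-21, miR-146b and miR-155 in the main setting and 10 alternatives, with the median of all miRNAs detected on both arrays as a black tick. miR-21 lies from -0.15 to 0.20 relative to that tick, miR-146b and miR-155 lie below it in each setting drawn, of which 2 only rescale the arrays and so cannot move a point relative to the tick, and miR-155 passes 2-fold with the software gene signal alone (-1.79).

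miR-146a, the sequence relative of miR-146b, was not well above background in either preparation. Over 19 spots at day 2-4 it read -1.76 (lowest), -0.44 (median) and 1.21 (highest), and over 19 spots at day 8-10 -1.31, 0.65 and 2.10. None of these spots was well above background, and 19 of 19 early and 17 of 19 late spots lay within the central 95% of negative-control spots. The raw brightness of its 19-base probe averaged 45.5 at day 2-4 over a local background of 42.5.

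Both miR-146 relatives are read by an 18-base and a 19-base probe, so their spans can be set side by side, with capitals for the bases that the longer probe covers.
miR-146a, 19-base probe: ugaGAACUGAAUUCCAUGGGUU
miR-146b, 19-base probe: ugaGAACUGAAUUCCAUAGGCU
G18A and U21C both lie inside the span. The miR-146b probes gave signal on arrays where the miR-146a probes stayed at control level, so the signal read for miR-146b was not seen on the probes for miR-146a. This says nothing of amounts of miR-146a under the detection limit.

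miR-132 was likewise not well above background. Its 20 spots read -1.90 (lowest), -0.26 (median) and 3.59 (highest) at day 2-4 and -1.07, 0.80 and 3.57 at day 8-10, and none was well above background. Of these, 17 early and 14 late spots lay within the central 95% of negative-control spots and the others, 3 and 6, lay above it. miR-212, its partner from the same transcript, had 3 of 20 spots well above background at day 2-4 and 4 of 20 at day 8-10, all from its longer probe, and was detected on neither array by the rule used. That longer probe averaged 4.20 at day 2-4 and 4.85 at day 8-10, and the software's own call listed miR-212 as detected on both. The passenger strands miR-21* and miR-146b*, the opposite arms of their hairpins, had 0 of 20 spots well above background on each array. The array had no entry named for a passenger strand of miR-155 or miR-132.

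The intensity of a probe is not an amount of miRNA, and the members show this within a single miRNA. The probes of miR-21 differ by 1 base at the end toward the seed, shown with the covered bases in capitals.
miR-21, 19-base probe: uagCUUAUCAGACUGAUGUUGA
miR-21, 20-base probe: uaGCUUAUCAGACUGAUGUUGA
The longer probe was 6.27-fold brighter at day 2-4 and 5.997-fold brighter at day 8-10. For miR-146b the longer probe was 8.05-fold and 8.25-fold brighter, and for miR-155 at day 2-4, the only window in which both of its probes were detected, 1.91-fold. Among the 75 miRNAs with exactly 2 such probes detected on both arrays, the longer was brighter in 73 at day 2-4 and 72 at day 8-10, with a median ratio of 2.33 and 2.51. Ratios as large as that of miR-146b were found for 3 of the 75 on each array, itself included. For this reason no member's level is ranked against that of another.

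**Figure D4:**
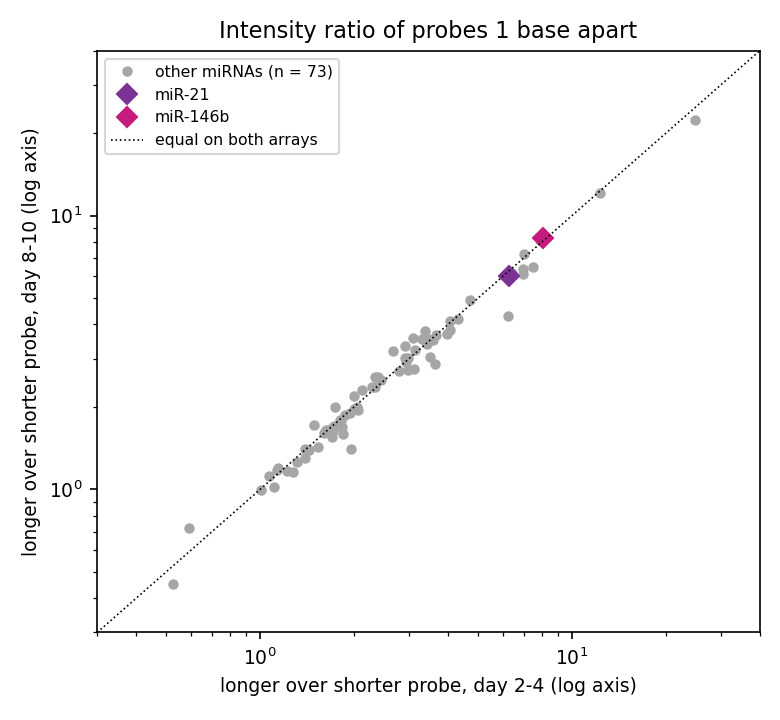
Intensity of the longer over the shorter probe at day 2-4 (horizontal) and day 8-10 (vertical), both log axes, for 75 miRNAs with 2 probes that differ by 1 base; each point is a miRNA. miR-21 (6.27 and 5.997) and miR-146b (8.05 and 8.25) lie near the line of equal ratios, well above the medians of 2.33 and 2.51.

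A wider list of 31 miRNAs linked to Toll-like receptor, NF-kappaB or other inflammatory signalling had 16 detected on both arrays. Of these, 3 were at least 2-fold higher at day 8-10, 1 was at least 2-fold lower and 12 did not reach 2-fold, so 4 of 16 were called beside the 23.4% of all miRNAs. The median log2 difference of the 16 was 0.32, beside 0.20 over all, and it turned to -0.19 with the 75th percentile over all probes and to -0.10 with quantile normalization, where the median over all was -0.30 and -0.12. The higher ones were miR-29b (2.50, on 1 of its 2 probes), miR-148a (1.90) and miR-98 (1.17), a let-7 relative, and the lower one was miR-199a-5p (-1.40). These calls follow the setting, since with normexp background correction miR-148a alone was called, miR-98 was not called without scaling, with quantile normalization, with the 75th percentile over all probes or with the software gene signal, and miR-221 was called lower with the 75th percentile over all probes. miR-148a is also on the adipocyte-linked list, of which 5 of 6 were called higher (median log2 difference 1.403), beside 15.9% of all miRNAs. miR-199a-5p is on the fibroblast-linked list, of which 4 were detected on both arrays (median -0.57). Of these, miR-199a-5p and miR-214 (-1.63) were called lower, beside 7.59% of all miRNAs, while miR-22 (0.59) and miR-31 (0.26) had positive differences. The part of these cell-type markers in the calls of the wider list was not tested.

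Among those that did not reach 2-fold, miR-125b-5p, which targets the Tnf transcript, had -0.25, miR-221 had -0.57 and miR-181b, which acts on NF-kappaB signalling in endothelium, had -0.09. miR-125a-5p had 0.35, let-7i, which targets Tlr4, 0.83, miR-29a 0.85, miR-148b 0.83, miR-152 0.59, miR-20a 0.28, miR-31 0.26 and miR-34a 0.22. The signs of miR-181b, miR-125a-5p, miR-20a, miR-31 and miR-34a turned in at least 1 alternative. miR-181a was detected at day 2-4 only, with no bound above 1. By the detection rule used here the other 14 were detected on neither array. The software's own call put 19 of the list on both arrays, beside 16 by that rule.

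Leukocyte markers matter beside miR-155 and miR-146a, since white blood cells are rich in both. Of 4 such markers, myeloid miR-223 alone was detected, by 10 of 20 spots on each array, all on 1 of its 2 probes. That probe averaged 13.6 at day 2-4 and 10.2 at day 8-10, a log2 difference of -0.22 after scaling that turned positive in 2 alternatives. miR-142-3p had 0 of 19 spots well above background at day 2-4 and 5 of 20 at day 8-10, and 13 early and 16 late spots lay above the central 95% of negative-control spots (means 2.04 and 3.60). miR-142-5p and miR-150 had none in either window. Whether leukocyte or serum RNA has a part in the miR-155 signal was not tested.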

How the data were processed

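Vesicle RNA (100 ng) was labelled with Cy3 and hybridised to 1-colour mouse miRNA arrays, per the labels' protocols. The authors deposited spot intensities, which per the file headers come from Feature Extraction 9.5.3.1 (Agilent) without normalization between arrays. No header or label names the genome build of the probe positions. The deposited flags, and the gene signal summed by the software, were also used. The deposited series table held the same intensity for 24986 of 24986 spots (tolerance 1e-05), so it is linear and uncentred, with medians 0.516 and 0.646.

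From these values, outlier spots were dropped, each array was divided by its 75th percentile over 279 probes that both arrays detected, spots were floored at the dimmest detected probe, log2 transformed and averaged per probe, then over the probes detected on at least 1 array. Spot SEs are technical. The calculation was tested on simulated arrays, both drawn from the day 2-4 array, with planted changes larger than 2-fold. That test does not bear on smaller differences, on the scaling between the real arrays or on their unequal detection limits. Python 3.11.15, pandas 2.3.3 and limma 3.58.1 (normexp, offset 50) were used. The members and lists were chosen with earlier results of these data known. Named are all members, their other arms, detected miRNAs of the wider list, the 2 nearest log2 differences per member and the leukocyte markers. miR-22, miR-214 and miR-451 were named after their values were seen. Both arrays share a slide; preparation, array and window cannot be told apart.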

Additional observations from a re-analysis of the deposited data

How the results depend on the processing

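The 10 alternatives changed the scaling, background correction, detection rule or summary. Only members detected on both arrays could be called, which were miR-21 and miR-146b in the main setting and 9 alternatives. Neither passed 2-fold in any of these. With the gene signal summed by the scanner software 3 members could be called, and miR-155 alone passed, beside 25.3% of 170 miRNAs. Of all 145 miRNAs detected on both arrays 34 (23.4%) passed 2-fold in the main setting, 23 higher and 11 lower. With normexp background correction 10 of 145 did, 5 on each side. The split was 10 higher and 29 lower with the 75th percentile over all probes, which moved the median log2 difference by -0.51, 17 and 17 with quantile normalization (median moved by -0.32), 17 and 15 without scaling (-0.19), and 22 and 21 with the software gene signal (-0.16). No paired analysis was possible because each window had 1 array. The dimmest detected probes read 4.86 and 5.55, so below this a member has only an upper limit, as miR-155 at day 8-10.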
